A study of Homo sapiens with 5 samples.

Results

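The promoters described here belong to long non-coding RNA (lncRNA) genes and lie away from the starts of protein-coding transcripts. Some of them lie inside a protein-coding gene. They were scored for binding of PHF8, a histone demethylase, in SKMEL-147 human melanoma cells by chromatin immunoprecipitation and sequencing (ChIP-seq). A transcription start site (TSS) of a GENCODE lncRNA gene on an autosome was kept if no protein-coding transcript started within 5 kb of it. The windows of 1 kb on either side of the kept TSSs were merged within each gene, and a gene was called bound if a peak overlapped its windows in all 3 replicates. This left 13596 stand-alone lncRNA genes of 18229 autosomal lncRNA genes and of 64486 annotated genes in all. They held 34399 distinct kept TSSs in 18076 merged windows. The other 4633 autosomal lncRNA genes had no kept TSS and are called lncRNA genes near a protein-coding TSS. All autosomal genes together numbered 61221, of which 19229 were protein-coding.

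The series holds 3 anti-PHF8 ChIP libraries, replicates A, B1 and B2, and 2 input libraries from the same cell line. The ChIP labels give the cell line and the antibody and name no treatment or altered allele. The names of the peak lists carry a further tag that the labels do not explain, so whether the cells carried a control guide RNA is not known. The peak lists held 21506 peaks in A, 20882 in B1 and 20120 in B2. The inputs have no values of their own here. The replicates are not stated to come from separate cultures, so the spread between them may be technical, and with 1 group no conditions could be compared. Of 6 melanocyte lineage genes used to check the cell line, MITF, SOX10 and PMEL had a peak in a TSS window in all 3 replicates, and MLANA, DCT and TYR had none in any. These peaks mark PHF8 at promoters and do not measure expression.

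PHF8 carries a PHD finger that binds trimethylated lysine 4 of histone H3, the mark of promoters that are active or poised, and a Jumonji domain that removes methyl groups from histone tails. Promoters rich in CpG dinucleotides, known as CpG islands, are mostly free of DNA methylation and carry that mark in many tissues. Many lncRNA genes lack a CpG island and are transcribed in few cell types, whereas those that host small nucleolar RNAs or microRNAs often have CpG-rich promoters like those of housekeeping genes.

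Reference sequences at the summits, the positions of highest enrichment, are shown for promoters that carry the results below, with each CpG in capitals. Each is 121 bases of the plus strand of GRCh37, the same build as hg19, centred on the median summit of the 3 replicates. The first 3 are among the strongest peaks, at NORAD (chr20:34638731-34638851), LINC01144 (chr1:45769621-45769741) and SNHG7 (chr9:139622471-139622591).
NORAD: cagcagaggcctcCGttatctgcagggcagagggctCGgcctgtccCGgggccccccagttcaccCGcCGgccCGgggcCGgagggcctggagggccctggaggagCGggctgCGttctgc
LINC01144: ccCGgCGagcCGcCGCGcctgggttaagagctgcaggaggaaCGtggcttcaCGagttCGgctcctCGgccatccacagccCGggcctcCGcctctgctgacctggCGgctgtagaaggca
SNHG7: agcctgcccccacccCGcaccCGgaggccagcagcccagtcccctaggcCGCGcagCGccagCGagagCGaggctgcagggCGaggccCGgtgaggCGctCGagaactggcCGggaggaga

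These held 9, 12 and 12 CpG dinucleotides. The next set shows genes from the lists below, MIR17HG (chr13:91999524-91999644), SAMMSON (chr3:70048931-70049051), NEAT1 (chr11:65190354-65190474) and MALAT1 (chr11:65266576-65266696), which had weaker peaks.
MIR17HG: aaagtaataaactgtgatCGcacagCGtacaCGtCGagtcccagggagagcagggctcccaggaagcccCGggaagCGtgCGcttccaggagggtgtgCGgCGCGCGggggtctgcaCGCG
SAMMSON: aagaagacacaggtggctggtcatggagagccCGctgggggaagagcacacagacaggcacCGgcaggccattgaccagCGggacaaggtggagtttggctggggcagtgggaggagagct
NEAT1: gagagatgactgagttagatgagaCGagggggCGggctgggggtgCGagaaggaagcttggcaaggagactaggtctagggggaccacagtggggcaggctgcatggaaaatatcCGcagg
MALAT1: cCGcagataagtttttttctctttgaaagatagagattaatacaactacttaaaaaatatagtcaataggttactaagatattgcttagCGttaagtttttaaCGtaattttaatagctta

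MIR17HG held 13 CpG dinucleotides, NEAT1 held 4, and SAMMSON and MALAT1 held 3 each. The strongest summits of MIR17HG and MALAT1 in B2 and of SAMMSON in B1 lay outside the stretches shown. The last pair contrasts a bound gene whose own TSS is poor in CpG, ENSG00000274670 (chr12:132568906-132569026, at the summit), with an unbound gene whose TSS is very rich in it, ENSG00000272078 (chr1:10699238-10699358, centred on the TSS).
ENSG00000274670: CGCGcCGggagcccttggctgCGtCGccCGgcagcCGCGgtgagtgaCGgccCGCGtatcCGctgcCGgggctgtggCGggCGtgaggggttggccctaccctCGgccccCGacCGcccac
ENSG00000272078: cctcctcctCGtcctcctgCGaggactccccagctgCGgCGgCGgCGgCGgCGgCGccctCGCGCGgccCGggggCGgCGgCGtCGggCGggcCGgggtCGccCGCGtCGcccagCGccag
The summit bound at ENSG00000274670 held 18 CpG dinucleotides, and the unbound TSS of ENSG00000272078 held 24. The peak of ENSG00000274670 is shared with ENSG00000291171, and its summits lay nearer a kept TSS of that gene, at -49 to -61 bp.

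PHF8 peaks were called at few stand-alone lncRNA promoters. Of the 13596 genes, 834 were bound, which is 6.13% with a 95% Wilson interval of 5.74 to 6.55%. Intervals of this kind cover counting error only. An unbound gene is one without called peaks in all 3 replicates, which does not show that PHF8 is absent there. Among all 61221 autosomal genes 26.2% were bound by the same rule, among protein-coding genes 61%, and among lncRNA genes near a protein-coding TSS 51.3%. Windows of stand-alone genes met a peak for 1006 genes (7.40%) in replicate A, 917 (6.74%) in B1 and 885 (6.51%) in B2, against 27.5%, 26.8% and 26.6% of all autosomal genes in the same replicates. The stand-alone share was lowest in B2 and highest in A, and none of its 3 values came near those of the other classes. The mean share per replicate was 6.88% ± 0.461 (SD, n = 3) for stand-alone genes, 52.7% ± 0.805 for lncRNA genes near a protein-coding TSS and 62.3% ± 0.793 for protein-coding genes.

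Stand-alone genes were bound less often than protein-coding genes in each replicate, with a difference of -55.8 percentage points for A, -55.3 for B1 and -55.1 for B2. The mean was -55.4 ± 0.332 points (SD, n = 3), and an exact sign-flip permutation test over replicates, two-sided, gave p = 0.25. This is the smallest p that 3 replicates allow, so none of the sign-flip tests below could pass a threshold of 0.05. Against lncRNA genes near a protein-coding TSS the difference was -45.9 ± 0.344 points (n = 3), with the same exact p of 0.25. The size of the gap depends on the unit counted: it was -22.4 points among genes with 1 TSS and -17.2 points between merged loci, where each stretch of overlapping windows counts once. The plot of shares by gene class gives the 3 replicates beside each value.

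**Figure D1:**
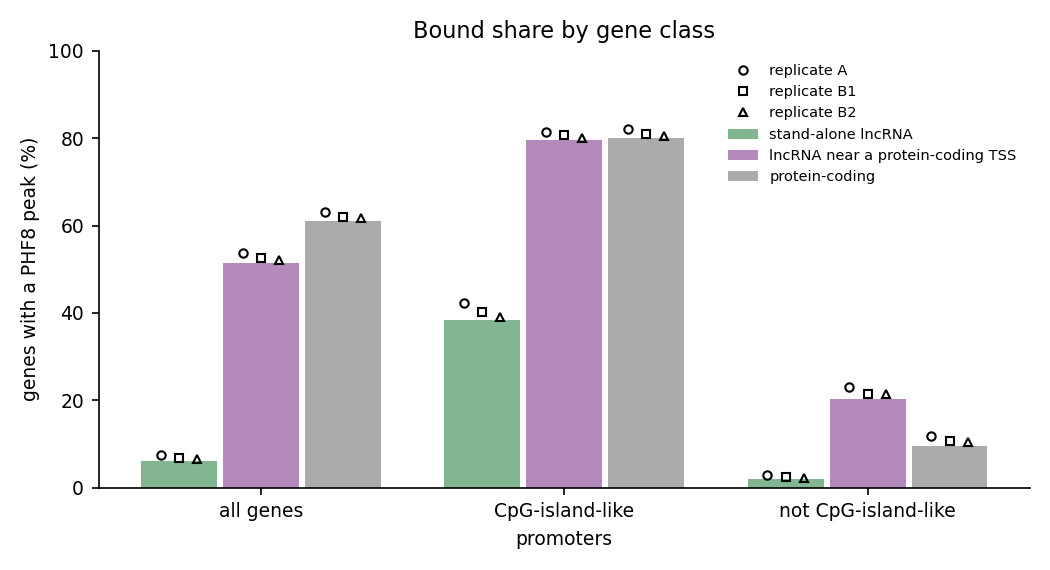
Share of genes with a PHF8 peak in a TSS window (y axis, percent) for stand-alone lncRNA genes, lncRNA genes near a protein-coding TSS and protein-coding genes, over all genes, those with a CpG-island-like TSS and those without; bars count genes with a peak in all 3 replicates and symbols the single replicates. The bar for all stand-alone genes stands at 6.13% and rises to 38.4% for those with a CpG-island-like TSS, against 80.0% for protein-coding genes of that kind.

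Most stand-alone genes had no peak at all. No replicate had a peak for 12538 genes (92.2%), 142 had a peak in 1 replicate and 82 in 2. Of the 142, 101 were seen only in A, 29 only in B1 and 12 only in B2. Those seen only in A had a median fold enrichment of 5.84, against 19.5 for the bound genes. The same pair of medians was 4.77 and 11.6 for B1, and 4.55 and 11.1 for B2. Just outside the rule stood DDX11L16, with 33.1-fold enrichment in A and 17.7 in B1 and no peak in B2, ENSG00000260111, with 30.4 in A and 3.12 in B2, and ENSG00000288075, with 20.3 in A and 10.8 in B2. These 3 were chosen after their values were seen. The weakest genes inside the rule were LINC01237, with 3.99, 3.28 and 4.04 in A, B1 and B2, ENSG00000286893, with 5.20, 3.41 and 3.63, and LINC00887, with 6.38, 2.78 and 3.31. A gene outside the rule could thus hold far stronger peaks in a pair of replicates than a gene inside it held in all 3.

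The 834 bound genes did not stand for as many binding regions. Their strongest peaks in A lay on 668 regions, of which 515 held 1 bound gene, 141 held 2 and 12 held 3 or more, up to 4. The strongest peak fell in the same region in all 3 replicates for 764 genes (91.6%). For 23 genes that peak also met the window of a protein-coding gene in all 3 replicates. The rule had dropped some TSSs of 730 stand-alone genes, 44 of them bound, and the values given for these genes concern only their kept TSSs.

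Bound stand-alone genes were mostly those with a CpG-rich TSS. A promoter was called CpG-island-like where the 500 bp around at least 1 kept TSS had a GC share of 0.5 or more and at least 0.6 times the CpG number expected from base composition (the observed over expected ratio). Of the 1552 stand-alone genes of this kind, 596 were bound (38.4%, 36.0 to 40.8%). Of the 12044 others, 238 were bound (1.98%, 1.74 to 2.24%). CpG-island-like genes made up 71.5% of the bound and 7.49% of the unbound stand-alone genes. Computed per replicate, the gap was 58.1, 60.6 and 61.3 points for A, B1 and B2 and averaged 59.99 ± 1.68 (SD, n = 3, exact sign-flip p = 0.25).

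The bound share rose over the range of CpG content and stayed below that of protein-coding genes throughout. At an observed over expected ratio under 0.2 only 9 of 4723 stand-alone genes were bound (0.191%). From 0.2 to 0.4 the share was 1.54% of 5070 genes, from 0.4 to 0.6 it was 6.55% of 2000 genes, from 0.6 to 0.8 it was 25.8% of 1073, and from 0.8 to 1.0 it was 46.3% of 607. Above 1.0 it was 47.2% of 123 genes, with an interval of 38.6 to 55.9% that holds the value of the bin before. Protein-coding genes in the same bins were bound at 1.03%, 5.30%, 20.6%, 66.2%, 82.95% and 88.5%. In none of these bins did the intervals of the 2 classes overlap.

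**Figure D2:**
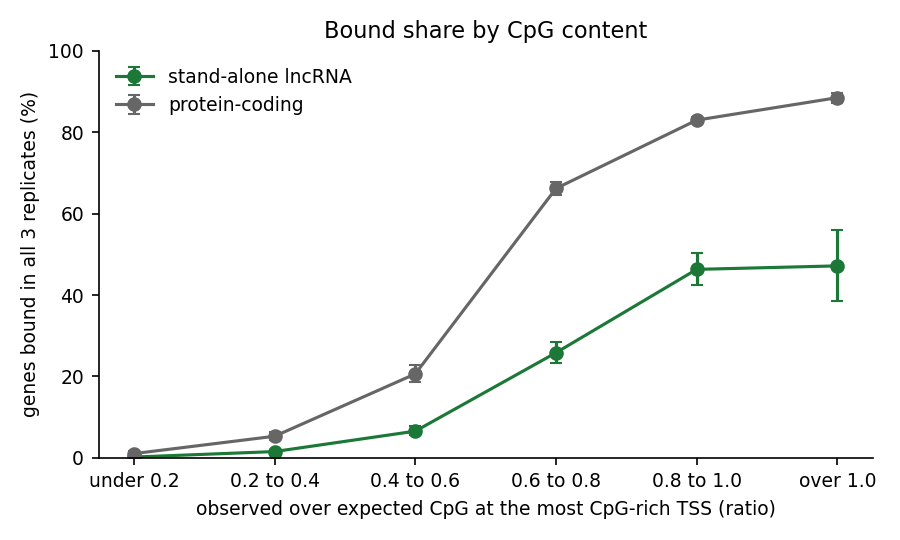
Share of genes bound in all 3 replicates (y axis, percent, with 95% Wilson intervals) by the observed over expected CpG ratio at the TSS window richest in CpG (x axis, ratio), for stand-alone lncRNA genes and protein-coding genes. The lncRNA line climbs from 0.191% to 47.2% and the protein-coding line from 1.03% to 88.5%, the former below the latter in every bin.

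Within CpG-island-like promoters alone, 80.0% of 14035 protein-coding genes and 79.6% of 2421 lncRNA genes near a protein-coding TSS were bound, against the 38.4% of stand-alone genes. The stand-alone minus protein-coding difference was -39.9 points for A, -40.9 for B1 and -41.4 for B2, with a mean of -40.7 ± 0.781 (SD, n = 3, exact sign-flip p = 0.25). Protein-coding genes had more TSSs and so wider windows, with a median of 4688 bp in all against 2001 bp for unbound and 2065.5 bp for bound stand-alone genes. Among genes with a single TSS, 35.1% of 604 CpG-island-like stand-alone genes and 59.8% of 1148 such protein-coding genes were bound. On this footing the mean difference was -24.6 points, and the intervals, 31.4 to 39.0% and 57.0 to 62.6%, do not overlap.

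For 884 CpG-island-like stand-alone genes no replicate had a peak. By the rule on CpG number, the richest of them were ENSG00000272078, which starts inside CASZ1 on the opposite strand, ENSG00000260996 near NRARP, and MIR646HG, the host of a microRNA on chromosome 20. Their observed over expected ratios were 1.14, 0.94 and 1.22, above the median of 0.75 for bound stand-alone genes and 0.89 for bound protein-coding genes. High ratios follow largely from the choice of these genes by CpG number.

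Some bound genes without a CpG-island-like TSS had their summit in CpG-island-like sequence. The strongest peak had to meet a window of the gene, but its summit could lie outside it. Of these 238 genes, 92 (38.7%) had a CpG-island-like summit in A, 81 (34.0%) in B1 and 84 (35.3%) in B2. Among the 596 bound genes with a CpG-island-like TSS the shares were 89.3%, 90.3% and 89.4%. The strongest of the 238 were ENSG00000274670, with fold enrichments of 57.7, 33.2 and 27.0 in A, B1 and B2, and ENSG00000267232, with 57.5, 27.6 and 30.3. The summits of the former lay upstream of its TSS, at positions -640 to -652 bp from it, in the CpG-rich sequence printed above. Those of the latter lay 1003 to 1026 bp downstream, just outside its window. The peak of ENSG00000274670 is shared with ENSG00000291171, which has a CpG-island-like TSS. Its summits lay at -49 to -61 bp from the nearest kept TSS of that gene. The next were ENSG00000236817 (42.5, 34.8 and 32.3), ENSG00000288838 (44.1, 28.3 and 27.0) and ENSG00000268583 (42.9, 25.5 and 23.7). ENSG00000268583 alone of these 5 had its summit within 250 bp of its own TSS, 135 to 145 bp downstream. The observed over expected ratio at that TSS was 0.58, just under the cutoff of 0.6. Its strongest peak also met the window of a protein-coding gene.

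Of the 834 bound genes, 136 (16.3%, 13.96 to 18.97%) were CpG-island-like neither at a kept TSS nor at any of the 3 summits. Their peaks were weak, with median fold enrichments of 11.3, 6.97 and 6.57 for A, B1 and B2. The highest mean rank among them was shared by ENSG00000284959 and ENSG00000286686 on chromosome 14, which have 1 peak in common with 53.5, 23.9 and 21.0. They were followed by ENSG00000285771, with 34.7, 23.5 and 21.0, and by the antisense gene GP6-AS1, with 28.7, 20.4 and 18.9. These 4 genes were picked after their values were seen.

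Peaks at bound stand-alone genes were weaker and narrower than at bound protein-coding genes. The fold enrichment of the strongest peak, a ratio of ChIP over local background at the summit, ranged from 3.19 to 64.7 in A with a median of 19.5, against a median of 33.9 for protein-coding genes. For B1 the medians were 11.6 and 19.7, and for B2 they were 11.1 and 18.7. The log2 difference of the medians was -0.77 ± 0.02 (SD, n = 3, exact sign-flip p = 0.25). In fragments at the summit the medians were 58, 40 and 39 in A, B1 and B2, against 99, 65 and 64 for protein-coding genes. The median width was 544, 461 and 435 bp against 833, 735 and 686 bp, a log2 difference of -0.65 ± 0.03 (n = 3, exact sign-flip p = 0.25). Each class had its highest enrichment in A, so the comparison was made within replicates.

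CpG-island-like stand-alone promoters had the stronger peaks of the bound set, with median fold enrichments of 23.9, 13.5 and 13.0 against 12.8, 8.59 and 8.01 for the others. Protein-coding promoters without CpG-island-like sequence had 19.9, 11.3 and 10.8. The median percentile of bound stand-alone genes among bound protein-coding genes was 18.2, and 118 (14.1%) exceeded the protein-coding median in all 3 replicates. The order of strength among the 834 genes was similar between replicates, with Spearman's rho of 0.886 for A with B1, 0.880 for A with B2 and 0.926 for B1 with B2. B1 and B2, the closest pair, carry a common letter in the labels. The genes share libraries and, in part, peaks, so these values are descriptions.

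**Figure D3:**
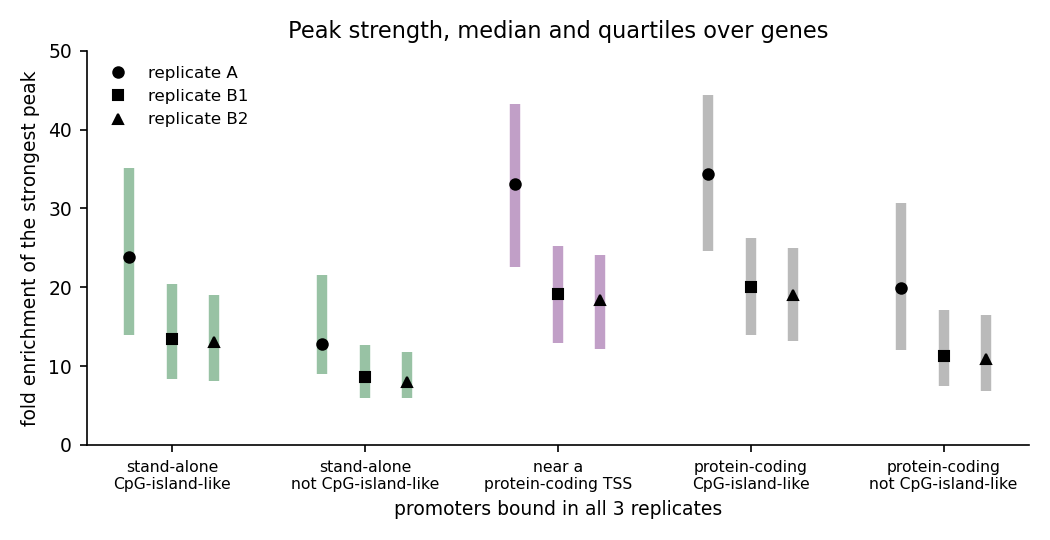
Fold enrichment of the strongest peak (y axis, ratio of ChIP over local background) at promoters bound in all 3 replicates; symbols are the medians of replicates A, B1 and B2 and bars run from the lower to the upper quartile over genes. The stand-alone medians in A are 23.9 with and 12.8 without a CpG-island-like TSS, below the 34.3 and 19.9 of protein-coding genes.

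The 8 strongest regions carried 15 stand-alone genes. The highest mean rank belonged to ENSG00000214719 and ENSG00000290395 on chromosome 17, which share a peak with fold enrichments of 64.7, 37.4 and 35.2 in A, B1 and B2. NORAD, an abundant lncRNA that binds Pumilio proteins and is needed for genome stability, shared its peak with ENSG00000234139 on the opposite strand (57.2, 35.7 and 36.2). Its summit lay inside its exon, 149 to 161 bp downstream of its TSS at position 34638940 of chromosome 20, in the sequence printed above. PP7080 and SLC9A3-AS1, which start on opposite strands of chromosome 5, shared 57.3, 35.3 and 35.4. LINC01144 on chromosome 1 had 60.2, 32.8 and 36.8, with summits 79 to 100 bp inside its exon.

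A peak of 56.9, 31.7 and 32.5 was common to BMS1P4, BMS1P4-AGAP5, ENSG00000290737 and GLUD1P3 on chromosome 10. ENSG00000290737 and GLUD1P3 are tagged as overlapping a pseudogene, as are ENSG00000290395 on chromosome 17 and ENSG00000291171 on chromosome 12, and BMS1P4 is itself named as one. Near-identical copies can share reads, so the values of these 3 regions are uncertain. SNHG7 had 59.1, 33.4 and 27.9, ENSG00000288906 on chromosome 19 had 53.8, 33.8 and 31.5, and ENSG00000274670 with ENSG00000291171 on chromosome 12 shared 57.7, 33.2 and 27.0. All 8 regions had 92 or more fragments at the summit in every replicate, against a median of 39 to 58 for all bound genes. The regions were chosen by fold enrichment, from which fragments are in part recovered, so this contrast is no separate evidence.

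Summits lay mostly just inside the transcribed sequence. After leaving out genes with another TSS on the opposite strand within 2 kb, 64.9% of 459 summits in A, 65.9% of 461 in B1 and 64.6% of 457 in B2 were downstream of the nearest kept TSS. Protein-coding genes had 72.8%, 72.6% and 73.2%, a mean difference of -7.75 ± 1.02 points (SD, n = 3, exact sign-flip p = 0.25). With 1 TSS per gene, the 5′ end of the gene record, it was -14.1 points. Among genes with a single TSS the shares lay further apart, at 62.6%, 63.2% and 62.4% for stand-alone and 80.6%, 80.8% and 81.6% for protein-coding genes. In both classes and all 3 replicates the fullest bin was 100 to 200 bp downstream, with 29.0% of the stand-alone and 38.1% of the protein-coding summits in A. Summits of stand-alone genes were more spread, with 72.5% within 250 bp of the TSS in A, 73.8% in B1 and 72.4% in B2 against 87.5%, 87.2% and 87.6%. Over all 834 bound genes, the strongest summit in A lay in an exon of the gene for 48.2%, in an intron for 21.5% and outside the gene for 30.3%.

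**Figure D4:**
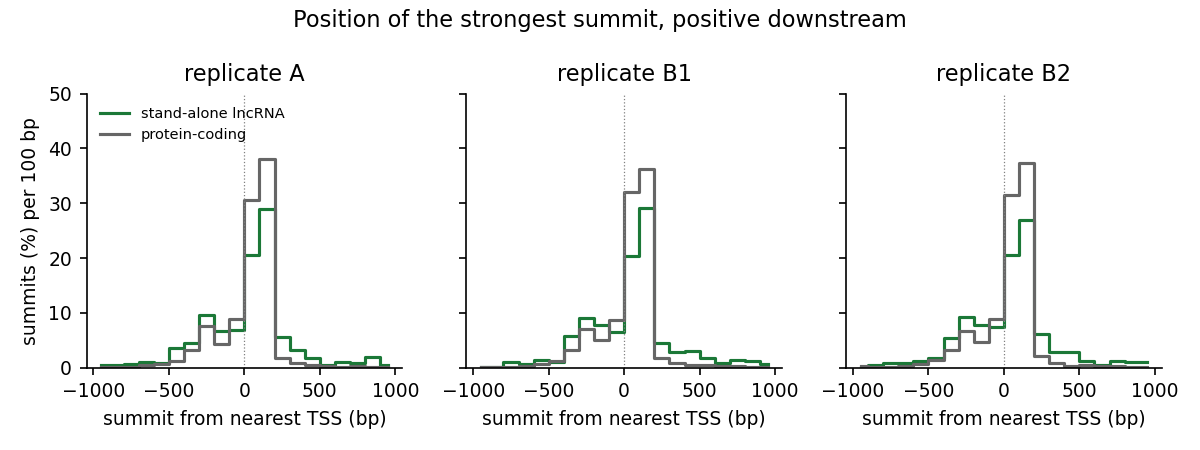
Position of the strongest summit relative to the nearest TSS of the gene (x axis, bp, positive downstream) as a share of summits per 100 bp (y axis, percent) in replicates A, B1 and B2, for bound stand-alone lncRNA and protein-coding genes without an opposite TSS within 2 kb. Both lines peak from 100 to 200 bp downstream, at 29.0% for lncRNA and 38.1% for protein-coding genes in A, and the lncRNA line has the longer tails.

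Host genes of small nucleolar RNAs had the highest bound share of the symbol classes. Their introns release small RNAs, many of which guide chemical changes of ribosomal RNA. Of 20 such SNHG genes outside chromosome 8, 14 were bound (70.0%), against 6.13% of all stand-alone genes and 26.2% of all autosomal genes. Among genes with a CpG-island-like TSS, 38.4% of all stand-alone and 80.0% of protein-coding ones were bound. All 14 bound SNHG genes were among the 16 with such a TSS. Their median fold enrichments were 42.6, 23.5 and 21.9 in A, B1 and B2, above the medians of all bound stand-alone genes in each replicate. After SNHG7, the highest in A were SNHG11 (56.7, 28.0 and 29.8), SNHG15 (56.1, 27.8 and 22.6), SNHG32 (47.6, 28.4 and 21.2) and SNHG17 (47.2, 29.6 and 23.9). The lowest in A was SNHG16 (21.2, 20.4 and 20.4). SNHG14, SNHG22, SNHG31, SNHG10, SNHG26 and SNHG27 had no peak in a kept window, and the first 4 of these had lost 1 to 10 TSSs to the distance rule.

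Host genes of microRNAs were bound in 20 of 61 cases outside chromosome 8 (32.8%), against 6.13% of all stand-alone genes and 26.2% of all autosomal genes, and 4 more had a peak in some replicates. A CpG-island-like TSS was present at 29 of the 61, and 16 of those were bound, beside 38.4% of all CpG-island-like stand-alone genes. MIR29B2CHG, which yields members of the miR-29 family, had 45.9, 25.9 and 25.8. MIRLET7A1HG, a source of let-7, had 42.7, 27.2 and 27.0, and MIR210HG, whose microRNA is induced by hypoxia, 40.4, 25.6 and 29.9. MIR23AHG had 31.5, 18.1 and 20.0. MIR17HG, the precursor of the oncogenic miR-17-92 cluster, had 26.1, 13.8 and 16.1, and MIR155HG 26.5, 15.0 and 12.8. The weakest were MIR34AHG (10.5, 6.82 and 5.59), whose microRNA is a p53 target, and MIR924HG (10.5, 3.41 and 4.64). MIR100HG had peaks of 7.01 in A and 4.77 in B1 and none in B2, while MIR137HG, MIR205HG and MIR99AHG had none in any replicate.

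**Figure D5:**
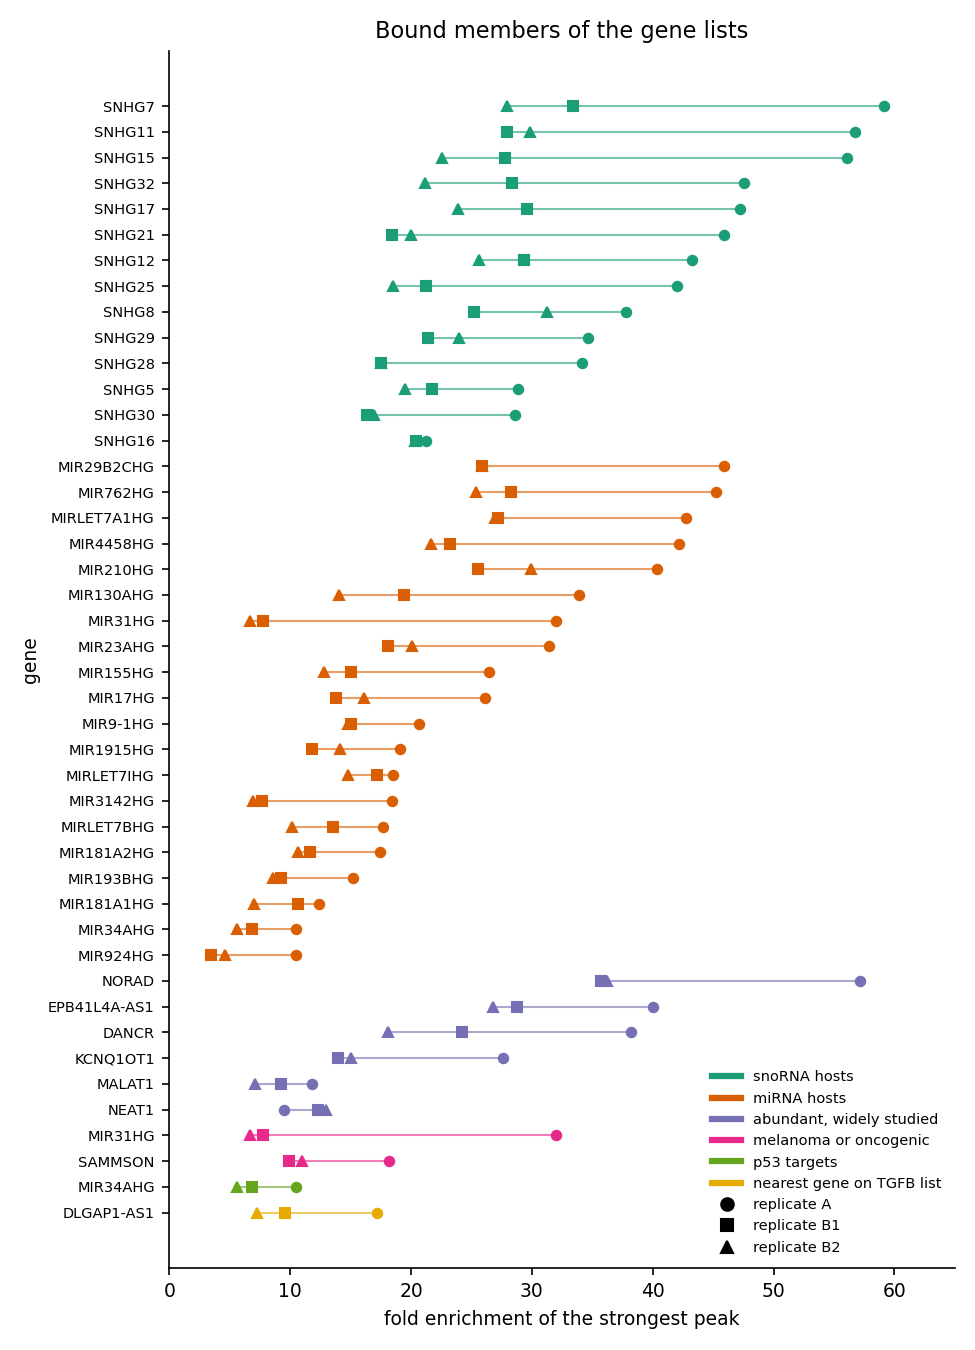
Fold enrichment of the strongest peak (x axis, ratio) in replicates A, B1 and B2 for the 42 bound genes of the lists (y axis), coloured by list; genes on 2 lists appear under both. The snoRNA hosts reach from 16.3 to 59.1, whereas SAMMSON, MALAT1, NEAT1, MIR34AHG and DLGAP1-AS1 stay below 20 in all 3 replicates.

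Among 11 abundant and widely studied lncRNA genes that met the rule, 6 were bound (54.5%, 28.0 to 78.7%). The share was 6.13% for all stand-alone genes and 26.2% for all autosomal genes. A CpG-island-like TSS was present at 10 of the 11, a kind of which 38.4% were bound among all stand-alone genes. Apart from NORAD, EPB41L4A-AS1 had 40.1, 28.8 and 26.8 in A, B1 and B2, and DANCR, a host of a small nucleolar RNA, had 38.2, 24.2 and 18.1. KCNQ1OT1, the imprinted antisense transcript inside KCNQ1, had 27.6, 14.0 and 15.0. NEAT1, the scaffold of nuclear paraspeckles, had 9.51, 12.3 and 12.9 and was the only one of the 6 with its lowest value in A. MALAT1, a nuclear speckle lncRNA, had 11.8, 9.20 and 7.09. Both were below the median of all bound stand-alone genes in at least A, and MALAT1 had 3 to 4 peaks across its windows. Its strongest summit lay in the AT-rich exon sequence printed above in A and B1, and nearer the first TSS (position 65265111), at position 65265961, in B2.

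The other 5, H19, MIAT, CYTOR, MIR4435-2HG and OIP5-AS1, had no peak in any replicate. H19, MIAT, CYTOR and MIR4435-2HG had a CpG-island-like TSS. CYTOR and MIR4435-2HG are near-identical copies on chromosome 2, where reads that match both may have been dropped or split, so their values are uncertain. OIP5-AS1 kept 1 TSS, with 23 dropped for lying near a protein-coding TSS, so its main promoter is not among those described.

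Of 12 stand-alone genes with a known link to melanoma or other cancers, 2 were bound (16.7%, 4.70 to 44.8%). The share was 6.13% for all stand-alone genes and 26.2% for all autosomal genes, and the interval holds both. SAMMSON, a lncRNA that lies beside MITF and is required for growth of melanoma cells, had 18.2, 9.91 and 11.0 in A, B1 and B2, 62827 bp from the nearest protein-coding TSS. MIR31HG had 32.0, 7.76 and 6.65, a fold enrichment in A far above the other replicates. In fragments at the summit MIR31HG had 83, 53 and 47, a smaller gap, beside medians of 58, 40 and 39 over all bound stand-alone genes. LINC00518 had a peak of 4.77 in B1 alone. BANCR, CASC15, DIRC3, HOTAIR, MEG3, UCA1, LINC00520, TTN-AS1 and CDKN2B-AS1 had none, and of these HOTAIR, TTN-AS1 and CDKN2B-AS1 had lost 3, 3 and 11 TSSs to the rule. CASC15, DIRC3, HOTAIR and MEG3 had a CpG-island-like TSS. Such a TSS was present at 6 of the 12, the 2 bound genes among them, beside 38.4% bound among all CpG-island-like stand-alone genes.

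Of 3 p53-linked genes only MIR34AHG was bound (33.3%, 6.15 to 79.2%), against 6.13% of all stand-alone genes and 26.2% of all autosomal genes. LINC-PINT, which kept 13 TSSs and lost 27 to the rule, and PURPL were not bound. MIR34AHG was the only one of the 3 with a CpG-island-like TSS, a kind of which 38.4% were bound among all stand-alone genes. None of 7 genes known for expression in single lineages or in stem cells (LINC-ROR, ESRG, HULC, PCA3, LINC00261, LINC00458 and RMST) had a peak in any replicate, and 2 of them were CpG-island-like. PCA3 and HULC had lost 3 and 46 TSSs to the rule, and the interval of 0 bound among 7 genes reaches 35.4%, so this count cannot be told from the 6.13% of all stand-alone genes. The transforming growth factor beta pathway is a subject of the study, and for 21 stand-alone genes the nearest protein-coding TSS belonged to a list of its genes. Of these, DLGAP1-AS1 was bound (17.2, 9.55 and 7.23), 138318 bp from TGIF1, DLGAP1-AS2 had a peak of 4.68 in A alone, and the other 19 had none. The 1 bound gene of 21 is 4.76% (0.846 to 22.7%), near the 6.13% of all stand-alone genes. No neighbour of TGFBR2, SMAD3, VEGFA or INHBA on this list had a peak, and none of the 21 had a CpG-island-like TSS.

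The bound share varied with the surroundings of the gene. It was 7.34% at 5 to 10 kb from the nearest protein-coding TSS, 8.53% at 10 to 25 kb, 7.41% at 25 to 50 kb, 6.35% at 50 to 100 kb and 3.43% beyond 100 kb. The interval of the last bin, 2.94 to 4.01%, lay below those of the other 4. Fewer genes beyond 100 kb were CpG-island-like, 8.51% against 11.5 to 14.2% nearer by. Among CpG-island-like genes the shares in the same order were 44% (88 of 200), 44.7%, 42.3%, 34.9% and 28.3%. The interval of the farthest, 24.0 to 33.0%, still lay below those of the first 3 bins.

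Genes that started between other genes were bound more often (7.85% of 9503) than those inside a gene on the opposite strand (58 of 2902 genes) or the same strand (2.57% of 1089). CpG-island-like sequence was also rarer inside genes, at 4.62% and 5.42% against 14.3%. Within CpG-island-like genes the shares were 39.5%, 31.3% and 30.5%, with overlapping intervals.

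A TSS of another lncRNA gene on the opposite strand within 1 kb went with a bound share of 29.0% (314 of 1081 genes), against 4.16% of the genes without one. Of the genes with such a partner 38.1% were CpG-island-like, against 9.11% of the others. Since such pairs share windows, 1 peak can call both genes. Where a pseudogene started within 1 kb, 21.8% of 679 genes were bound, against 5.31% of the others, and 47.7% were CpG-island-like, against 9.51%. Where no other gene of any kind started within 1 kb, 369 of 11203 were bound (3.29%, 2.98 to 3.64%), and 28.3% of the 791 CpG-island-like ones among them. Genes tagged as overlapping a pseudogene, whose reads may be shared with a parent gene, were bound in 18.7% of 680 cases against 5.47% of the rest. Of the tagged genes 36.8% were CpG-island-like, against 10.1% of the rest.

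The bound share also differed between classes of gene symbol. Genes with a LINC symbol were bound in 8.25% of 2120 cases, antisense genes in 5.88% of 970, and genes known by an identifier only in 4.53% of 9626, with CpG-island-like shares of 15.6%, 10.1% and 8.90%. Divergent (-DT) genes were bound in 1.94% of 103 cases and intronic (-IT) genes in 0.98% of 102, with CpG-island-like shares of 3.88% and 1.96%. Divergent promoters within 5 kb of a protein-coding TSS fall outside the rule, so the 103 do not stand for them. LncRNA genes near a protein-coding TSS were bound at 51.3%. Genes with other symbols were bound in 21.6% of 589 cases, and 35.7% of them were CpG-island-like. Genes with more kept TSSs were bound more often, from 3.68% with 1 TSS through 8.79% with 3 to 4 to 23.6% with 10 or more, and their CpG-island-like share rose from 6.61% to 39.8%. By chromosome the share ran from 2.92% on chromosome 18 to 9.44% on chromosome 7, with CpG-island-like shares of 6.74% and 17.5%.

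Short motifs were counted on both strands of the 300 bases from 250 before to 50 after the TSS richest in CpG of each gene. The SP/KLF box GGGCGG occurred at 55.6% of bound and 10.4% of unbound stand-alone genes, against 26.9% of all autosomal genes and 64.5% of bound protein-coding genes. Among CpG-island-like stand-alone genes alone the shares were 66.4% and 43.3%. The ETS motif CCGGAAG occurred at 15.1% of bound and 9.94% of unbound CpG-island-like genes (5.90% of all genes). The cyclic AMP response element TGACGTCA occurred at 4.87%, 29 of 596, against 0.941%, 9 of 956, with intervals of 3.41 to 6.90% and 0.496 to 1.78% (1.06% of all genes). The E-box CACGTG occurred at 10.1% and 5.75% (5.51% of all genes). Of the rarer motifs, GCATGCGC of NRF1 occurred at 5.54% and 3.77% (1.88% of all genes) and AAGATGGCG of YY1 at 1.01% and 0.418% (1.05% of all genes), with overlapping intervals for each.

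Motifs without a CpG were not more frequent at bound genes over all stand-alone genes. The TATA motif TATAAA occurred at 6.59% of bound and 19.8% of unbound stand-alone genes (17.4% of all genes), but at 5.54% and 7.01% within CpG-island-like genes, where the intervals overlap. The AP-1 motif TGACTCA occurred at 6.95% of bound and 6.64% of unbound genes (4.70% of all genes), and CCAAT, the NFY motif, at 35.6% and 36.97% (36.4% of all genes). Within CpG-island-like genes, CCAAT was found at 32.9% of bound and 24.6% of unbound genes, with intervals of 29.2 to 36.8% and 22.0 to 27.4%. The M-box TCATGTG, a site of the melanocyte factor MITF, occurred at 3.24% and 4.97% (3.79% of all genes), with overlapping intervals. None of the motifs searched contains another, and a match is a description of the sequence.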

How the data were processed

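PHF8 ChIP-seq peak lists of 3 replicates from SKMEL-147 cells were used. According to the methods and processing notes, the authors mapped the reads to hg19 with Bowtie2 and called narrow peaks with MACS in each replicate separately against input. The MACS version, read totals and the role of Picard, which the submitters' processing notes name, are not given in the sources used here. The deposited fold enrichment is a linear ratio over local background, and the deposited p-value and q-value are −log10 values. The deposited score is a rounded form of the latter and was not used. The study's cutoffs, a fold enrichment of 1.5 and a q-value of 0.05, removed no listed peak: the lowest fold enrichment was 2.42, 2.07 and 2.47 in A, B1 and B2 and the largest q-value 0.0454, 0.0482 and 0.0375.

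From these, TSS windows were built on GENCODE release 44 lifted to GRCh37 and overlapped with peaks by at least 1 bp (Python 3.11.15, pandas 2.3.3, numpy 2.4.6, scipy 1.17.1, pysam 0.24.0). For protein-coding genes and lncRNA genes near a protein-coding TSS, all transcript TSSs were used. Fragments at a summit were recovered as the whole number that gives both the deposited fold enrichment and p-value under a Poisson law. This succeeded within 0.001 for 99.8% of peaks in A and 100.0% in B1 and B2. The weakest summits held 8, 8 and 10 fragments, and fragments are not corrected for amplification. The scoring was tested on simulated data. Shares carry 95% Wilson intervals, and differences between classes carry exact two-sided sign-flip permutation tests over the 3 replicates.

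Genes named are the 8 strongest and 3 weakest bound regions by mean rank, the 5 strongest without a CpG-island-like TSS, the 3 unbound genes with the most CpG, and the members of the gene lists, outside chromosome 8. The members and lists were chosen with earlier results of these data known. Alternatives covered windows, the distance rule, transcripts, peak filters, the CpG definition and leaving out each replicate.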

Additional observations from a re-analysis of the deposited data

How the results depend on the processing

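The differences from protein-coding genes in bound share, in bound share within CpG-island-like promoters, in fold enrichment, in width and in summit position, the difference from lncRNA genes near a protein-coding TSS, and the gap in CpG-island-like share between bound and unbound stand-alone genes kept their sign in each alternative run. The sizes moved more: the difference in bound share from protein-coding genes ran from -57.1 to -17.2 points, the latter with merged loci in place of genes, and was -40.7 in CpG-island-like promoters, where it was -24.6 among genes with 1 TSS. That restriction, which gave -22.4 points over all promoters, was chosen after seeing the data. Asking for peaks in at least 2 replicates, or in the same window in all 3, leaves the difference in bound share as it is by construction, and gave -0.83 and -0.77 for log2 fold enrichment. With 2 replicates the sign-flip p cannot go below 0.5, so no call could be gained or lost by leaving one out.

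The bound share of stand-alone genes itself moved by more than the spread between replicates in 6 alternatives. It was 4.63% of 7165 genes at least 50 kb from a protein-coding TSS, 6.74% with a peak in at least 2 of 3 replicates, 3.96% of merged loci, and 8.95% of 3855 genes when only well supported transcripts were used. In 2 alternatives chosen after seeing the data it was 5.47% without genes tagged as overlapping a pseudogene, and 3.29% of genes with no other TSS within 1 kb.

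Leaving out each replicate in turn gave a bound share of 6.22 to 6.45%. The matching ranges were -55.5 to -55.2 points against protein-coding genes, -46.0 to -45.7 against lncRNA genes near a protein-coding TSS, -41.2 to -40.4 within CpG-island-like promoters and 59.4 to 60.9 for the CpG-island-like share. They were -0.82 to -0.78 for log2 fold enrichment, -0.71 to -0.66 for log2 width and -8.52 to -6.94 points for downstream summits. Peak lists limit the depth of any statement to positions the caller listed, with 8 or more fragments at the summit.

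All class differences were taken within replicates. There is 1 ChIP group, so no pairing of samples between groups arises.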
